A study of Mus musculus with 9 samples.

Results

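The immediate early response genes described here are 10 genes, *Fos*, *Fosb*, *Jun*, *Junb*, *Atf3*, *Egr1*, *Egr2*, *Egr3*, *Ier2* and *Dusp1*, out of 54232 gene IDs counted. They were picked by symbol with their levels in these libraries already known, so their levels and fold changes are given as a description without a test. All 10 IDs were found in the annotation, and all 10 passed the filter on low counts in every comparison. RNA-seq had been made from one mouse embryonic stem cell line of C57 x CBA background, OG2, which carries a GFP reporter under the distal *Oct4* promoter. Naïve mESCs were grown in S/L medium (serum and LIF), and primed mEpiSCs, converted from the same naïve cells, were grown in F/A medium (bFGF and Activin A). Each state was sequenced at passage 5 (P5) and passage 15 (P15) with 2 libraries per state and passage, and mouse embryonic fibroblasts (MEFs) gave 1 library. Naïve and primed cells shared a layer of mitomycin C-treated MEF feeders. Naïve cells were passaged by trypsin and primed cells as clumps after collagenase IV, so state, serum, growth factors and way of dissociation cannot be told apart here. The labels do not say whether the 2 libraries of a group came from separate cultures, and legends in the paper call them 2 biological repeats. Every p-value below measures only the spread between such libraries.

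Immediate early genes are transcribed within minutes of a growth factor, serum or stress signal, without new protein synthesis. ERK, p38 and JNK kinases act on factors already bound at their promoters, among them SRF with its ternary complex partners at the CArG box and CREB or ATF1 at cAMP response elements. Their mRNAs are short lived, and in many of them AU-rich elements in the 3′ untranslated region (3′ UTR) speed decay. FOS, JUN and ATF3 proteins form the dimeric factor AP-1, EGR proteins are zinc finger factors that bind GC-rich sites, and DUSP1 takes phosphate off the kinases that induce it.

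RefSeq promoter windows (GRCm38.p6, from 250 bases before a transcription start to 50 after it) were at hand for 7 genes, *Fos*, *Fosb*, *Jun*, *Junb*, *Atf3*, *Egr2* and *Dusp1*. The stretches shown lie before a RefSeq transcription start and outside annotated exons. For *Egr2* and *Dusp1* they lie within the annotated span of the gene, downstream of its outermost start. The 4 genes shown lay between 0.247% and 10.8% of the naïve level in primed cells at P5. They are *Fos* (chr12:85473690-85473889, plus strand), *Fosb* (chr7:19310052-19310245, minus strand), *Egr2* (chr10:67537669-67537868, plus strand) and *Dusp1* (chr17:26508520-26508672, minus strand), each read 5′ to 3′ along the gene. Capitals mark TGACG, the core of a cAMP response element, in either direction (CGTCA), TGACGTCA, its full palindrome, which contains TGACG in both directions, the CArG box, the EGR motif GCGNGGGCG and TATAAA.
Fos: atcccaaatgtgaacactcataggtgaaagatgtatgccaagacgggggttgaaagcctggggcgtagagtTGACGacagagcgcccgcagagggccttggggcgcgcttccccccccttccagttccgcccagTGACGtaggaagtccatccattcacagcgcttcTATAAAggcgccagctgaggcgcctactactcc
Fosb: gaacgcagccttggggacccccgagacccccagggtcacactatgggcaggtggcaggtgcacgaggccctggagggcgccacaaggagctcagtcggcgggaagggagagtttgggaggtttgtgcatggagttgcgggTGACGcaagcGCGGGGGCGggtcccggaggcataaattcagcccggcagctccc
Egr2: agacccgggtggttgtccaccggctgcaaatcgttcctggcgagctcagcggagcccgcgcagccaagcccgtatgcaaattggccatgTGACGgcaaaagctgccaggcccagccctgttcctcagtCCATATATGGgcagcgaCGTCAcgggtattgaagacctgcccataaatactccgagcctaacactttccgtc
Dusp1: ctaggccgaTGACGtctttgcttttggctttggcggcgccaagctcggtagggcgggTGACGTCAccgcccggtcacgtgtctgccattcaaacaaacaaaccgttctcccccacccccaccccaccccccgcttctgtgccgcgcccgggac

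Both strands of each whole window were searched. TGACG was found in 6 of the 7 genes, *Fos*, *Fosb*, *Junb*, *Atf3*, *Egr2* and *Dusp1*, and in 8 of the 11 windows, some of which overlap, against 20.8% of all 32851 RefSeq mouse promoters of the same length. In *Fos* it lay at -129 and again at -66, with TATAAA starting at -33, counting -1 as the base before the start. Of the 7 genes a CArG box was found in *Egr2*, in 4 of its windows, against 1.63% of all promoters. TGACGTCA was found in *Dusp1* (1.79% of all promoters) and GCGNGGGCG in *Fosb* (5.55%). The AP-1 motif TGANTCA was found in 0 of the 7 genes (7.81%), and TATAAA in *Fos* and *Junb* (13.6%). In *Junb* TATAAA began at the start base itself and not before it. These are matches of letters within a window and not sites of binding, and variants of the motifs, such as other AP-1 forms, were not searched.

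The genes also shared features of structure that their choice did not use. In GENCODE M21 on GRCm38, 8 of the 10 genes spanned between 1522 and 7356 bp, and 24.2% of the 14382 protein-coding genes tested at P5 spanned under 10000 bp. *Atf3* (47744 bp) and *Dusp1* (56539 bp) were the exceptions, through long annotated transcripts that start far upstream. *Jun* and *Ier2* have a single exon, and the others have at most 2 to 6 exons in a transcript, where the median gene tested has 9. The pentamer ATTTA occurred in the 3′ UTRs of these genes at a median of 2.59 per kb, against 1.20 per kb for all genes tested, with 8 of 10 genes above that value, *Fosb* below it and *Ier2* without one. The nonamer TTATTTATT was found in 2 of the 10, against 7.39% of the genes tested. The 30 bases around its first copy are shown for both, with the nonamer in capitals.
Fos 3′ UTR: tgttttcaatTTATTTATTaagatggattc
Dusp1 3′ UTR: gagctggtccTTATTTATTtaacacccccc

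All libraries were deep enough for these genes. Total counts ranged from 14378051 to 20985136 in naïve and primed libraries and reached 25646547 in MEFs, and the lowest count of any of the 10 genes in any library was 59. Naïve and primed libraries carried their labelled identity, with 6 naïve markers (*Zfp42*, *Esrrb*, *Nr0b1*, *Tbx3*, *Dppa3* and *Tfcp2l1*) summing to between 1117 and 1184 CPM (counts scaled to 1e+06 per library, with library sizes scaled by the trimmed mean of M-values, TMM) in naïve cells, 162 to 163 CPM in primed cells at P5 and 36.2 to 39.9 CPM at P15. The 6 primed markers (*Fgf5*, *Otx2*, *T*, *Pou3f1*, *Cer1* and *Dnmt3b*) summed to between 340 and 352 CPM in naïve and between 1044 and 1060 CPM in primed cells. The 20 fibroblast markers, none of them at 0 in any library, summed to 7522 to 7561 CPM in naïve cells at P5, 4600 to 4711 in primed cells at P5, 13114 to 13832 in naïve cells at P15 and 12191 to 12745 in primed cells at P15, against 69937 in MEFs. RNA of fibroblast markers was thus present in all libraries and moved with both state and passage, so the level of each gene in MEFs is given beside its values. Single markers gave different shares of the MEF level, from 4.46% for *Fap* to 341% for *Dcn* in one primed library at P15. In bulk RNA, fewer cells that express a gene and less RNA of it per cell cannot be told apart.

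The 10 genes together held 5396 and 5460 CPM in naïve cells at P5 and 652 and 663 CPM in primed cells. At P15 the sums were 3129 and 3217 CPM in naïve cells and 1698 and 1707 CPM in primed cells, and MEFs held 762 CPM. The naïve sum was thus lower at P15 than at P5, the primed sum was higher, and naïve libraries remained above primed libraries at both passages. In no comparison of states or passages did the 2 libraries of one group overlap those of the other for any of the 10 genes, and of all genes tested the libraries of the groups were likewise apart in 84.6% for the states at P5, 81.9% at P15, 58.0% for the passages in naïve cells and 78.1% in primed cells. The 2 libraries of a group differed for a typical gene by 1.67% in naïve cells and 4.18% in primed cells at P5, and by 2.65% and 7.59% at P15. The widest gap between replicates was 18.8%, for *Egr3* in primed cells at P15.

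**Figure D1:**
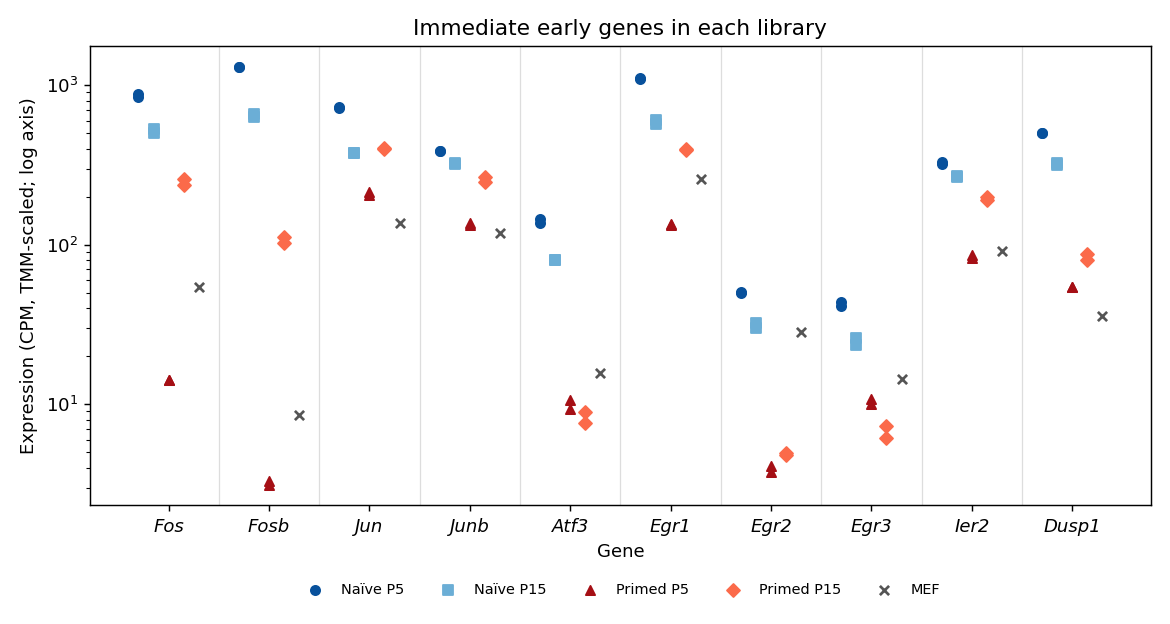
Level of each gene in every library, in CPM on a log axis, with 1 point per library and a colour and shape for each group. Naïve P5 libraries are the highest for all 10 genes, primed P5 libraries are the lowest for *Fos* (14.1 and 14.3 CPM), *Fosb* (3.13 and 3.27 CPM), *Egr1*, *Egr2* and *Ier2*, and primed P15 libraries lie above primed P5 libraries for all but *Atf3* and *Egr3*.

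*Fos* (ENSMUSG00000021250, GRCm38 chr12:85473890-85477273, plus strand) encodes the founding member of the FOS family of AP-1 subunits. Naïve cells at P5 held 877 and 842 CPM and primed cells 14.1 and 14.3 CPM. At P15 naïve cells held 531 and 501 CPM and primed cells 236 and 256 CPM, and MEFs held 53.9 CPM. Primed cells at P5 were thus below the fibroblast level, and at P15 they were 4.57 times that level. Mean CPM of primed cells was 1.65% of the naïve mean at P5 and 47.7% at P15, and the fitted log2 fold change of primed against naïve cells was -5.89 (SE 0.05) at P5 and -1.08 (SE 0.06) at P15. From P5 to P15 *Fos* changed by -0.73 (SE 0.04) in naïve cells and by 4.09 (SE 0.07) in primed cells on the log2 scale. Subtraction of each library's fibroblast share of MEF counts left 144 and 135 of 284 and 257 counts in primed cells at P5. The log2 fold change at P5 was then -6.83 and the change in primed cells 5.18.

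*Fosb* (ENSMUSG00000003545, chr7:19302696-19310051, minus strand) encodes a close relative of FOS, with a promoter that carries TGACG and GCGNGGGCG in the stretch shown. Naïve cells at P5 held 1303 and 1292 CPM and primed cells 3.13 and 3.27 CPM, from 63 and 59 counts. At P15 naïve cells held 656 and 635 CPM and primed cells 103 and 111 CPM, and MEFs held 8.55 CPM. The log2 fold change of primed against naïve cells was -8.63 (SE 0.06) at P5, which ranked 3 from the lowest of 16482 genes tested, with *Fos* 40 from the lowest. At P15 it was -2.61 (SE 0.06), and primed cells were 12.5 times the fibroblast level. In primed cells the change from P5 to P15 was 5.03 (SE 0.10), which placed *Fosb* 6 from the highest of 15957 genes tested, with *Fos* 10 from the highest.

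*Fosb* and *Fos* did not move in step. The ratio of *Fosb* to *Fos* counts was 1.49 and 1.53 in naïve cells at P5 and 1.23 and 1.27 at P15, against 0.222 and 0.230 in primed cells at P5, 0.435 and 0.433 at P15 and 0.159 in MEFs. The ratio was thus highest in naïve libraries at either passage and lowest in fibroblasts. The ratio of *Junb* to *Jun* counts ranged from 0.525 to 0.648 over all P5 libraries and was 0.854 and 0.862 in naïve cells at P15, 0.662 and 0.625 in primed cells at P15 and 0.871 in MEFs.

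*Jun* (ENSMUSG00000052684, chr4:95049034-95052222, minus strand), the dimer partner of FOS proteins, differed less between states. Naïve cells held 732 and 720 CPM at P5 and primed cells 212 and 206 CPM. At P15 the values were 378 and 376 CPM in naïve cells and 402 and 397 CPM in primed cells, with 136 CPM in MEFs. *Jun* was the only one of the 10 genes above the naïve level in primed cells at P15, at 106% of it, and its log2 fold change was -1.76 (SE 0.04) at P5 and 0.07 (SE 0.06) at P15. The antisense gene *Junos* shares 232 bp with its exon, and the sources do not say whether counting used strand, so reads of the pair could not be separated.

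*Junb* (ENSMUSG00000052837, chr8:84974484-84978718, minus strand) encodes another JUN protein, one that restrains growth in many cells. It held 384 and 388 CPM in naïve cells and 138 and 133 CPM in primed cells at P5. At P15 it held 322 and 324 CPM in naïve cells and 266 and 248 CPM in primed cells, with 119 CPM in MEFs. Among the 10 genes the log2 fold change at P5 was smallest in size here, at -1.48 (SE 0.04), and at P15 it was -0.34 (SE 0.06). The gene *Prdx2* on the other strand shares 173 bp of its exons, so its level is also uncertain if strand was not used.

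*Atf3* (ENSMUSG00000026628, chr1:191170296-191218039, minus strand), a stress-induced ATF family factor that often acts as a repressor, showed another course. It held 138 and 144 CPM in naïve cells at P5 and 80.0 and 80.1 CPM at P15, against 9.34 and 10.6 CPM in primed cells at P5 and 7.63 and 8.86 CPM at P15. Primed libraries were thus lower than MEFs (15.7 CPM) at both passages and did not rise with passage. The log2 fold change was -3.79 (SE 0.07) at P5 and -3.29 (SE 0.10) at P15.

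*Egr1* (ENSMUSG00000038418, chr18:34859823-34864984, plus strand), a zinc finger factor widely used as a readout of ERK activity, held 1106 and 1091 CPM in naïve cells and 132 and 135 CPM in primed cells at P5. At P15 it held 601 and 571 CPM in naïve cells and 394 and 396 CPM in primed cells, and MEFs held 259 CPM. It went from 12.1% of the naïve mean at P5 to 67.4% at P15, with log2 fold changes of -3.01 (SE 0.04) and -0.58 (SE 0.06). In primed cells it rose 2.96-fold in mean CPM from P5 to P15.

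*Egr2* (ENSMUSG00000037868, chr10:67535475-67542188, plus strand), known for its part in hindbrain patterning and myelination and the gene with the CArG box shown above, held 50.8 and 49.97 CPM in naïve cells at P5 and 32.04 and 30.1 CPM at P15. Primed cells held 3.73 and 4.10 CPM at P5 and 4.93 and 4.83 CPM at P15. MEFs held 28.4 CPM, so that the primed level was 0.138 and 0.172 times the fibroblast level at P5 and P15, where the median fibroblast marker was at 12.6% to 12.9% and at 24.9% to 25.2% of its own. The log2 fold changes were -3.66 (SE 0.10) and -2.68 (SE 0.14). With each library's fibroblast share of MEF counts subtracted, 1 and 10 counts of *Egr2* were left in primed cells at P5 and 0 and 0 at P15, too few for a fold, against 942 and 931 in naïve cells at P5 and 365 and 388 at P15.

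*Egr3* (ENSMUSG00000033730, chr14:70077203-70082614, plus strand), a relative known for its part in muscle spindle development, held 43.5 and 41.5 CPM in naïve cells and 9.99 and 10.7 CPM in primed cells at P5. At P15 the values were 26.1 and 23.6 CPM and 7.29 and 6.14 CPM, with 14.3 CPM in MEFs. *Egr3* was lower at P15 than at P5 in both states, with log2 changes of -0.77 (SE 0.08) in naïve and -0.65 (SE 0.15) in primed cells. The primed level was 24.4% of the naïve mean at P5 and 27.0% at P15. The log2 fold change of primed against naïve cells was -2.01 (SE 0.09) at P5 and -1.90 (SE 0.14) at P15. With each library's fibroblast share of MEF counts subtracted it was -2.21 at P5 and -2.71 at P15, so the order of the passages turned.

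*Ier2* (ENSMUSG00000053560, chr8:84661331-84662852, minus strand), a small nuclear protein induced by serum, held 322 and 329 CPM in naïve cells and 86.6 and 82.0 CPM in primed cells at P5. At P15 it held 266 and 271 CPM in naïve cells and 198 and 190 CPM in primed cells, and MEFs held 91.6 CPM. Primed cells at P5 were thus close to the fibroblast value. The log2 fold change was -1.92 (SE 0.04) at P5 and -0.48 (SE 0.06) at P15.

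*Dusp1* (ENSMUSG00000024190, chr17:26505590-26562128, minus strand), the phosphatase that switches off p38 and JNK, held 504 and 499 CPM in naïve cells and 54.4 and 53.9 CPM in primed cells at P5. At P15 it held 324 and 318 CPM in naïve cells and 87.0 and 79.9 CPM in primed cells, and MEFs held 35.8 CPM. It was above the fibroblast level in all groups. The log2 fold change was -3.18 (SE 0.04) at P5 and -1.95 (SE 0.06) at P15.

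Set against all genes, the 10 genes had a median log2 fold change of -3.10 at P5 and -1.49 at P15, where the median of all genes tested was 0.0078 and -0.0039. At P5, 10 of 10 passed the rule for lower expression in primed cells (edgeR quasi-likelihood test, adjusted p under 0.01 and at least a 2-fold change), where 8.85% of all genes tested were lower by that rule and 22.3% changed in either direction. At P15, 6 of 10 were lower (*Fos*, *Fosb*, *Atf3*, *Egr2*, *Egr3* and *Dusp1*), where 11.0% of all genes were lower and 23.2% changed in either direction. Since the genes were chosen with these differences known, the counts describe the choice.

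**Figure D2:**
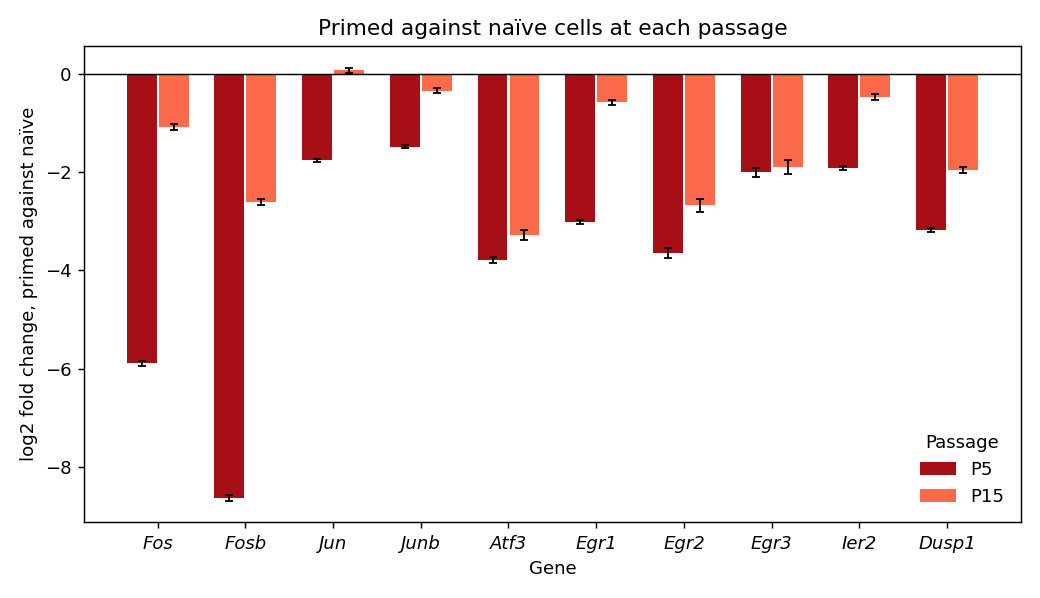
Log2 fold change of primed against naïve cells at P5 (dark bars) and P15 (light bars) for each gene, with the standard error of the fit as error bars. Bars at P5 run from -1.48 (*Junb*) to -8.63 (*Fosb*), and bars at P15 from 0.07 (*Jun*) to -3.29 (*Atf3*), with every P15 bar shorter than its P5 bar.

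The order of the 10 genes was compared on mean CPM per kb of exonic length. In naïve cells at P5 it was *Fos* (365 ± 10.7 CPM per kb, SD, n = 2), *Egr1* (245 ± 2.28), *Jun* (228 ± 2.63), *Ier2* (214 ± 3.39), *Fosb* (208 ± 1.25), *Junb* (168 ± 1.07), *Dusp1* (151 ± 1.20), *Atf3* (65.5 ± 2.23), *Egr2* (14.8 ± 0.176) and *Egr3* (9.64 ± 0.321), and no neighbours in this order overlapped between their libraries. In primed cells at P5 the order was headed by *Jun* (65.6 ± 1.42 CPM per kb), *Junb* (58.7 ± 1.56) and *Ier2* (55.4 ± 2.11) and ended with *Fosb* (0.513 ± 0.0161). *Fos* went from the top in naïve cells to sixth place in primed cells at P5 (6.03 ± 0.0426 CPM per kb). In primed cells at P15 *Ier2* (128 ± 3.67) and *Jun* (125 ± 1.11) overlapped at the top, as did *Junb* (112 ± 5.52) and *Fos* (105 ± 6.07) after them and *Egr3* (1.52 ± 0.185) and *Egr2* (1.44 ± 0.0221) at the bottom. In naïve cells at P15 *Fos* (219 ± 9.10) again headed the order and *Egr3* (5.65 ± 0.409) ended it.

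The course over passages differed by gene. In naïve cells all 10 genes were lower at P15 than at P5, at 49.7% (*Fosb*) to 83.8% (*Junb*) of their P5 mean, with a median log2 change of -0.75. In primed cells 8 were higher at P15, by a ratio of means from 1.25 (*Egr2*) to 33.4 (*Fosb*), and 2 were lower, *Atf3* at 0.825 and *Egr3* at 0.649 times the P5 mean, with a median log2 change of 0.90. By the same rule as above, 1 of 10 was lower in naïve cells (*Fosb*), where 0.721% of all genes were lower and 5.01% were lower by the adjusted p alone, and 4 of 10 were higher in primed cells (*Fos*, *Fosb*, *Egr1* and *Ier2*), where 3.18% of all genes were higher. With each library's fibroblast share of MEF counts subtracted, 0 of 10 passed the rule in naïve cells. In primed cells 9 could then be tested, of which 6 were higher at P15 (*Fos*, *Fosb*, *Jun*, *Junb*, *Egr1* and *Ier2*) and 1 was lower (*Egr3*), where 3.76% of all genes were higher and 11.1% lower. Without replicate 2 of P15, 0 passed in naïve cells.

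**Figure D3:**
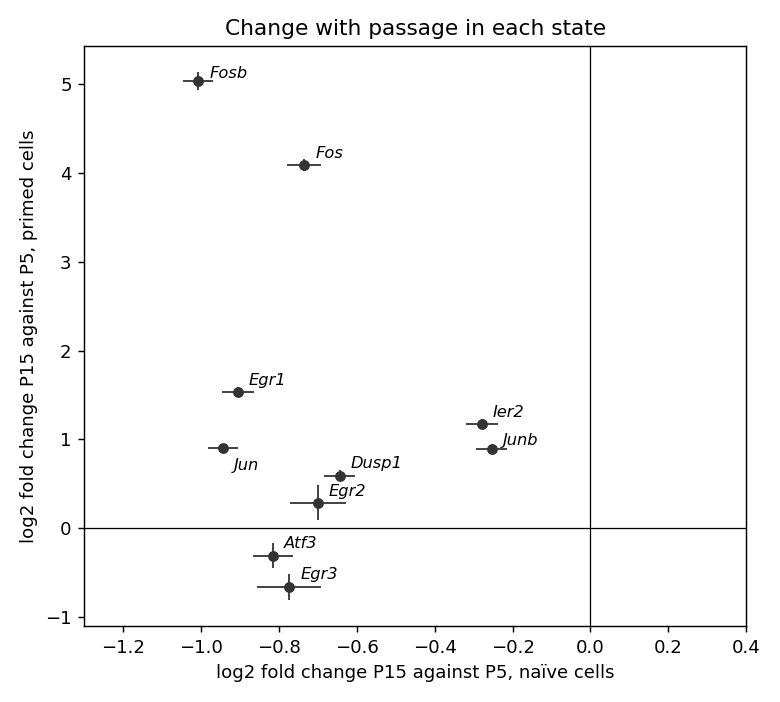
Log2 fold change from P5 to P15 in naïve cells (x axis) and in primed cells (y axis) for each gene, with standard errors. All 10 points lie left of 0 on the x axis, between -1.01 and -0.25, and 8 lie above 0 on the y axis, with *Fosb* (5.03) and *Fos* (4.09) far above the others.

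For the effect of state, 24.1% of all genes tested differed between the passages by edgeR's interaction term at an adjusted p under 0.01. The fibroblast values moved with passage as well. In primed cells the median fibroblast marker was at 12.6% to 12.9% of its MEF level at P5 and at 24.9% to 25.2% at P15, and in naïve cells at 13.7% to 13.97% and at 18.1% to 18.6%. For *Fos*, *Fosb*, *Jun*, *Junb*, *Egr1*, *Ier2* and *Dusp1* the level of primed cells at P15 was above that of the MEF library itself, at 1.53 (*Egr1*) to 12.5 (*Fosb*) times it, and in naïve cells all 10 genes were above the MEF level at both passages, at 1.09 (*Egr2*, P15) to 152 (*Fosb*, P5) times it. At P5 primed cells were below MEFs for 7 genes, *Fos*, *Fosb*, *Atf3*, *Egr1*, *Egr2*, *Egr3* and *Ier2*. The MEF library does not show how feeder cells behave in either medium, and the part of feeders in the results was not tested further.

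Genes outside the 10 were tested in lists written from general knowledge, with earlier results of these data known, by edgeR's quasi-likelihood test with adjustment over all genes and a threshold of 0.01. Among 32 other immediate early genes, 22 were lower in primed than in naïve cells and 7 higher at P5, where 31.1% of all genes tested were lower and 31.2% higher, and 19 were lower and 7 higher at P15, where 28.4% were lower and 28.2% higher. The median log2 fold change was -0.81 at P5 and -0.92 at P15, and 18 genes were lower at both passages. *Nr4a1*, an orphan nuclear receptor induced with the FOS genes, held 471 and 472 CPM in naïve cells and 45.6 and 45.9 CPM in primed cells at P5, and 361 and 375 CPM against 30.4 and 27.7 CPM at P15. Its log2 fold change was -3.33 at P5 (edgeR adjusted p = 7.0e-32) and -3.68 at P15 (1.7e-32), so that the groups stood apart at both passages.

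The other genes named from this list were also lower in primed cells at both passages. The 6 genes of the list that were higher at both passages are not among those named. *Sgk1*, a serum- and glucocorticoid-induced kinase, changed by -2.52 at P5 (edgeR adjusted p = 1.3e-29) and -2.37 at P15 (1.0e-28). *Csrnp1*, a cysteine- and serine-rich nuclear protein, changed by -2.37 (1.2e-25) and -1.76 (2.2e-21). *Klf6*, a zinc finger factor, changed by -1.71 (7.7e-26) and -1.28 (1.4e-20), and *Ccn2*, a secreted matrix protein that was higher in MEFs (808 CPM) than in any naïve library (431 to 594 CPM), by -1.56 (4.8e-25) and -1.45 (8.6e-23). *Nr4a3* and *Egr4*, singled out after their values were seen, changed by -3.75 and -4.03 at P5 and by -4.68 and -3.62 at P15 (edgeR adjusted p from 3.2e-24 to 3.6e-09), and the values of *Egr4* rest on 8 and 6 counts in primed cells at P5 and 5 and 5 at P15.

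In primed cells over passage, 12 of the 31 other immediate early genes tested were higher and 11 lower at P15, where 24.3% and 22.8% of all genes were. Of the 22 genes lower at P5, 7 rose and 9 fell from P5 to P15 in the primed state. *Nr4a1* fell by 0.69 on the log2 scale (edgeR adjusted p = 2.6e-08) and *Klf6* fell by 0.36 (1.6e-06), while *Csrnp1* rose by 0.37 (0.00049), *Ccn2* by 0.56 (4.5e-10) and *Sgk1* by 0.20 (0.0042). The same change was 4.09 for *Fos* and 5.03 for *Fosb*.

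**Figure D4:**
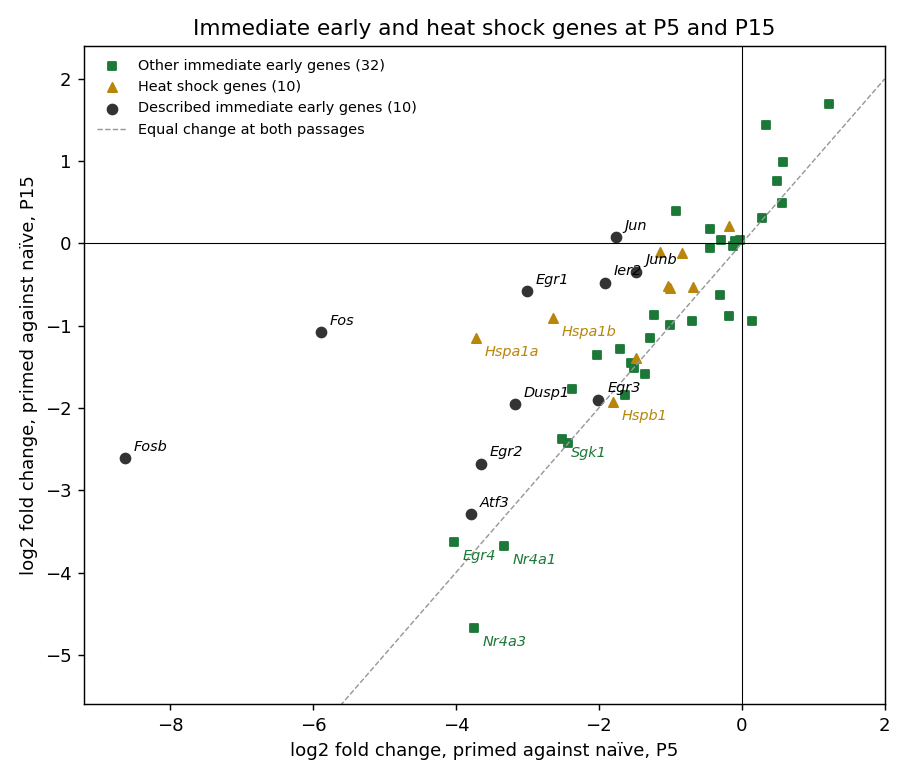
Log2 fold change of primed against naïve cells at P5 (x axis) and P15 (y axis) for the 10 genes (circles), 32 other immediate early genes (squares) and 10 heat shock genes (triangles), with the line of equal change dashed. *Fosb* and *Fos* lie farthest above the line (-8.63 against -2.61 and -5.89 against -1.08), while *Nr4a1* (-3.33 against -3.68) and *Nr4a3* (-3.75 against -4.68) lie below it.

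Of 14 genes for SRF, its partners, CREB and their coactivators, the factors that act on these promoters, 5 were higher in primed than in naïve cells and 2 lower at P5, where 31.2% of all genes tested were higher and 31.1% lower. At P15, 4 were higher and 2 lower, where 28.2% and 28.4% were. At either passage 0 of them were past 2-fold, where 22.3% of all genes were at P5 and 23.2% at P15. *Srf* itself changed by -0.26 at P5 (edgeR adjusted p = 5.5e-06) and -0.25 at P15 (0.00093). *Atf1* changed by -0.96 (7.7e-16) and -0.92 (5.5e-14), *Elk3*, a ternary complex factor, by 0.81 (2.6e-12) and 0.82 (4.2e-12), *Creb1* by 0.39 (1.5e-07) and 0.37 (4.0e-05), and the coactivator *Crtc3* by 0.64 (5.0e-06) and 0.42 (0.0070).

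Of 23 genes of the RAS, ERK, JNK and p38 pathways, 7 were higher in primed than in naïve cells and 10 lower at P5, and 5 were higher and 7 lower at P15, with 1 past 2-fold at each passage, against the same shares of all genes. *Mapkapk2*, a kinase below p38, changed by 1.06 at P5 (edgeR adjusted p = 2.9e-18) and 0.69 at P15 (2.1e-11). *Rps6ka1*, an ERK-activated kinase, changed by -0.72 (7.6e-15) and -1.14 (1.8e-17). *Mapk3*, which encodes ERK1, changed by 0.48 (2.5e-11) and 0.53 (1.1e-08), and *Mapk14*, which encodes p38 alpha, by -0.39 (9.1e-09) and -0.31 (0.00013). *Map2k1*, which encodes MEK1, changed by -0.35 (7.8e-09) at P5 and 0.25 (0.00055) at P15. These are mRNA levels, and the activity of the kinases was not measured.

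Of 9 other MAP kinase phosphatase genes, 4 were higher in primed than in naïve cells and 4 lower at P5, and 3 were higher and 4 lower at P15, where 31.2% and 31.1% of all genes were at P5 and 28.2% and 28.4% at P15. *Dusp5* and *Dusp6* are both ERK phosphatases, and they moved apart. *Dusp5* changed by -1.82 (edgeR adjusted p = 2.9e-21) at P5 and -1.44 (9.5e-17) at P15, and *Dusp6* by 0.95 (1.5e-18) and 0.82 (2.4e-14), from 115 and 113 CPM in naïve to 220 and 210 CPM in primed cells at P5. *Dusp7*, another ERK phosphatase, changed by 1.06 (1.2e-13) and 1.03 (5.2e-11), *Dusp4* by 0.75 (7.6e-15) and 0.30 (0.0015), and *Dusp9* by -0.79 (1.5e-15) and -1.21 (1.2e-18).

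Among 14 further AP-1 and EGR partners, 13 were tested, of which 4 were higher in primed than in naïve cells and 5 lower at P5, and 4 were higher and 3 lower at P15, near the shares of all genes given above. *Jund*, the third JUN gene, held 177 and 190 CPM in naïve cells and 61.8 and 57.7 CPM in primed cells at P5, and 121 and 137 CPM against 127 and 113 CPM at P15. Its groups stood apart at P5 (log2 fold change -1.59, edgeR adjusted p = 3.4e-22) and overlapped at P15 (-0.11, 0.16), and the difference between the passages was 1.49 (1.6e-14). *Nab1*, a corepressor of EGR proteins, changed by 0.99 (7.3e-13) and 1.47 (2.9e-17), *Mafk* by -1.19 (6.0e-17) and -1.18 (5.9e-15), and *Atf7* by 0.74 (6.8e-11) and 0.37 (0.0019). *Batf* passed the test on 1 to 3 counts in each naïve library against 29 and 29 counts in primed cells at P5 and 16 and 19 at P15, too few for a fold.

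Of 6 binders of AU-rich elements, 1 was higher in primed than in naïve cells and 4 lower at P5, and 1 was higher and 1 lower at P15, where 31.1% of all genes were lower at P5 and 28.4% at P15. *Zfp36*, which encodes tristetraprolin, a destabiliser of AU-rich mRNAs that is itself induced by serum, held 202 and 201 CPM in naïve cells and 43.3 and 51.6 CPM in primed cells at P5, and 140 and 129 CPM against 68.3 and 66.8 CPM at P15. It changed by -2.06 (edgeR adjusted p = 7.2e-24) and -1.01 (1.1e-15), and rose in primed cells from P5 to P15 by 0.48 (3.3e-06). *Hnrnpd* changed by -0.49 (3.3e-13) at P5 and by 0.06 (0.33) at P15. Of the remaining genes *Zfp36l2* changed by 0.32 (1.3e-07) and 0.77 (4.8e-13), *Zfp36l1* by -0.33 (9.3e-06) and 0.04 (0.62), and *Khsrp* by -0.18 (9.0e-05) and 0.16 (0.015).

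Of 10 heat shock genes, which respond to stress through another factor, 10 were lower in primed cells at P5, where 31.1% of all genes tested were, with a median log2 fold change of -1.09. At P15, 7 were lower and 1 higher, where 28.4% and 28.2% of all genes were, with a median of -0.54. *Hspa1a*, an inducible chaperone, held 84.6 and 88.5 CPM in naïve cells and 6.36 and 6.43 CPM in primed cells at P5, and 19.5 and 19.8 CPM against 9.18 and 8.63 CPM at P15. It changed by -3.73 (edgeR adjusted p = 6.5e-26) and -1.15 (1.8e-09), and its near-identical copy *Hspa1b* by -2.65 (1.5e-23) and -0.91 (8.4e-09), with reads that may have been shared between them. In naïve cells both fell from P5 to P15, by 2.14 (1.5e-09) and 1.51 (4.2e-08) on the log2 scale. *Hsp90aa1*, a constitutive and inducible chaperone, changed by -1.47 (1.1e-26) at P5 and -1.39 (5.1e-23) at P15, *Hspb1* by -1.80 (6.5e-25) and -1.93 (8.2e-25), and *Hspa8* by -1.04 (4.9e-23) and -0.52 (7.7e-11).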

How the data were processed

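The authors made poly(A) RNA-seq libraries with the NEBNext Ultra kit, trimmed reads with Cutadapt, aligned them with HISAT2 to mm10 and counted them with featureCounts on Ensembl genes, and the deposited values are raw counts per gene in 9 libraries. HISAT2 was set to report several alignments per read. Tool versions, annotation release and how the counting step treated strand and multiply aligned reads are not given in the sources used here. Columns named early and late were taken as P5 and P15, as in the study's design. Of 54232 IDs, 54079 were named with GENCODE M21, and 92 spike-in rows with 0 counts were left out.

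The 10 genes and all lists were chosen with earlier results of these data known. R 4.3.3 with edgeR 4.0.16 was used, with limma 3.58.1 and with DESeq2 1.42.0 as an alternative. CPM used TMM factors over all 9 libraries. Comparisons used the 4 libraries concerned, genes with at least 10 counts in at least 2 libraries, the quasi-likelihood test and Benjamini-Hochberg adjustment, called at 0.01 and, where said, 2-fold. The difference between passages was an interaction term over 8 libraries. The MEF library entered no fit. Scripts were tested on simulated data. From each list the up to 5 genes with the smallest adjusted p were named. The fibroblast share of a library was the median of 20 markers relative to MEFs. A further primed marker is not reported here. Total counts bound counting error only. Replicate counts differed by more than sampling noise (chi-square per gene from 2.10 to 3.28). Alternatives were DESeq2 size factors or library size alone, no filter, all 8 libraries in 1 fit, a replicate block, DESeq2's Wald test, subtraction of the fibroblast share and leaving out each replicate.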

Additional observations from a re-analysis of the deposited data

Results flagged for a closer look

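Naïve and primed cells moved in opposite directions between P5 and P15 for 8 of the 10 genes, with both primed libraries higher at P15 and both naïve libraries lower, and this difference was not tested because the genes were chosen on their values. The log2 change in primed cells was 4.09 for *Fos*, 5.03 for *Fosb*, 0.90 for *Jun*, 0.90 for *Junb*, 1.54 for *Egr1*, 0.29 for *Egr2*, 1.17 for *Ier2* and 0.59 for *Dusp1*, against changes of -1.01 to -0.25 in naïve cells. The rise of *Egr2* (SE 0.20) was not seen after subtraction of the fibroblast share. That left 1 and 10 counts in primed cells at P5 and 0 and 0 at P15, too few for a fold.

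Of the other named genes, 19 had a primed against naïve effect that differed between the passages in edgeR's interaction test (adjusted p under 0.01, where 24.1% of all genes tested passed). The difference in log2 fold change, P15 minus P5, was 2.59 for *Hspa1a* (adjusted p = 6.7e-15), 1.76 for *Hspa1b*, 1.49 for *Jund* (1.6e-14) and 1.07 for *Zfp36* (4.0e-11). It was 0.62 for *Csrnp1*, 0.61 for *Map2k1*, 0.57 for *Hnrnpd*, 0.53 for *Hspa8*, 0.49 for *Nab1*, 0.46 for *Zfp36l2*, 0.44 for *Klf6*, 0.39 for *Dusp5*, 0.39 for *Zfp36l1* and 0.36 for *Khsrp*. It was below 0 for *Nr4a1* (-0.33), *Mapkapk2* (-0.35), *Rps6ka1* (-0.40), *Dusp9* (-0.41) and *Dusp4* (-0.43). For *Nr4a3*, singled out after its values were seen, the difference was -0.91 (edgeR adjusted p = 0.0043).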

How the results depend on the processing

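The 40 log2 fold changes of the 10 genes kept their direction in the 449 of 450 values that the alternatives gave, the missing one being *Egr2* in primed cells over passage after subtraction of the fibroblast share, which left too few counts. The counts left, 1 and 10 at P5 and 0 and 0 at P15, did not show the rise. Of the 449, 87 moved by more than the spread between replicates, 60 of them under library size alone or that subtraction. The calls of the genes named from lists were lost in 20 and gained in 5 of their alternatives. Library size alone shifted the median gene by 0.21 at P5, 0.10 at P15 and -0.13 in primed cells over passage, and raised the share of higher genes among those called at P5 from 60.4% to 72.6%. Under it the counts at P5 became 1 lower among upstream factors, 2 lower among partners, 5 lower among kinases and 2 higher and 2 lower among AU-rich element binders, and at P15 1 lower upstream factor, 3 lower kinases and 3 higher AU-rich element binders, and *Khsrp* turned to 0.022 at P5. DESeq2's Wald test gave 3 higher upstream factors and 6 lower kinases at P5, 2 higher upstream factors, 2 higher partners and 4 lower kinases at P15, and 1233 in place of 1853 genes in primed cells over passage. With all 8 libraries in 1 fit, 2 AU-rich element binders were higher at P15. Subtracting the fibroblast share gave 0 of the 10 genes in naïve cells and 7 (6 higher, 1 lower) in primed cells over passage, where 3.76% of all genes were then higher and 11.1% lower, and *Zfp36l1* turned to -0.0782 at P15.

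Leaving out 1 library gave the following ranges. The counts ran from 2 to 3 higher partners (2 without primed replicate 1) and from 6 to 10 lower kinases at P5 (6 without primed replicate 2). At P15 they ran from 3 to 5 higher kinases (3 without naïve replicate 1), from 2 to 4 higher upstream factors, from 2 to 4 higher partners and from 0 to 1 higher heat shock genes (all lowest without naïve replicate 2), from 4 to 7 lower kinases (4 without primed replicate 1), and from 1 to 2 lower upstream factors and 1 to 2 higher AU-rich element binders (1 and 2 without primed replicate 2). Of the 10 genes, 0 to 1 passed in naïve cells over passage (0 without P15 replicate 2). At P15 *Zfp36l1* ran from -0.0544 (without naïve replicate 1) to 0.11 and *Jund* from -0.22 to 0.0017 (without primed replicate 2). Causes were not tested.

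The labels do not say whether same-numbered replicates shared more than a number. Their deviations correlated by -0.076 at P5, -0.11 at P15 and 0.099 within each state, which cannot decide it with 2 libraries per group. With a replicate block the count of genes called was 3663 at P5, 3369 at P15, 229 in naïve and 1923 in primed cells (3680, 3646, 178 and 1853 without it), and 0 heat shock genes were higher at P15. A crossed pairing at P15, added after seeing the data, called 3647 genes and gave 2 higher AU-rich element binders. With 2 libraries per group, 1 cell line and 1 MEF library, it is not known how far differences between cultures were measured. Low counts limit *Fosb* in primed P5 cells, *Egr4* (5 to 8 counts) and *Egr2* in primed cells and *Batf*.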

Other observations

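The genes whose levels over the 8 naïve and primed libraries were most like the mean course of the 10 genes were not immediate early genes. Among 9991 genes of at least 10 CPM, Pearson's r of log2(CPM + 1) with the mean course was 0.998 for *Rnps1*, a splicing factor, 0.997 for *Hsp90ab1*, a constitutive chaperone, 0.996 for *Nipsnap2*, a mitochondrial protein, 0.995 for *Myo10*, a motor of filopodia, 0.994 for *Pcyt1b*, an enzyme of phosphatidylcholine synthesis, 0.994 for *Ppp1r15b*, a subunit of the phosphatase of eIF2 alpha, 0.994 for *Glud1*, glutamate dehydrogenase, and 0.994 for *Rplp0*, a ribosomal protein. The 8 libraries fall into 4 groups, and these values are a description of levels. *Pcyt1b* held 64.8 and 58.1 CPM in naïve and 12.03 and 13.03 CPM in primed cells at P5 and 43.4 and 47.8 CPM against 21.2 and 21.5 CPM at P15. *Rnps1* ranged from 165 to 217 CPM. Against the same mean course, r of the single genes ran from 0.846 for *Egr3* to 0.982 for *Egr1*, each of which is part of that mean.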
